A study of Homo sapiens with 9 samples.

Results

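Chrysin was added to AC16 cells growing in high glucose, and the 3 libraries of that group were compared with the 3 libraries of high glucose alone over every gene that averaged at least 0.5 FPKM (a level counted in fragments, divided by transcript length and by library depth) in 1 of the 2 groups. This used 6 of the 9 libraries of the series and 16723 of the 60671 genes in its expression table. AC16 is a human cardiac line that came from the fusion of adult ventricular cells with fibroblasts. Chrysin is a plant flavonoid found in honey and propolis. The 3 groups were low glucose, high glucose, and high glucose with chrysin, with 3 libraries of polyadenylated RNA in each. All were the same cell line, so the groups differ in medium and compound, not in genotype, and no source used here gives the concentrations, the duration or the solvent. The labels also do not say whether the 3 libraries of a group came from separate cultures, so each p-value rests on the spread among these libraries alone, which may be technical. The series title sets the study in iron-dependent cell death (ferroptosis) of the diabetic heart and in SCD1, the product of the SCD gene.

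As background, cells short of oxygen, or in which the oxygen-sensing prolyl hydroxylases are blocked, build up hypoxia-inducible factors. These factors bind the core letters ACGTG and raise genes for glucose uptake, glycolysis, pH control, mitophagy and vessel growth. High glucose separately acts through the MondoA and ChREBP factors, whose best known target is TXNIP, an arrestin-like protein that binds thioredoxin and restrains glucose uptake. Ferroptosis is death by peroxidised membrane lipids, held back by cystine import, glutathione, GPX4 and monounsaturated fatty acids, the product of SCD, and promoted by iron and by ACSL4.

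The first sequences are promoters of 4 hypoxia-induced genes that fell and of UTP4, a ribosome-building gene that rose, chosen after the values were seen because their windows hold the letters compared below. Each is the 250 bases before the RefSeq start on GRCh38.p14, written 5′ to 3′ on the gene's strand, and the capitals mark the letters ACGTG or their complement (CACGTG for UTP4).

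CA9 promoter, chr9:35673678-35673927, plus strand: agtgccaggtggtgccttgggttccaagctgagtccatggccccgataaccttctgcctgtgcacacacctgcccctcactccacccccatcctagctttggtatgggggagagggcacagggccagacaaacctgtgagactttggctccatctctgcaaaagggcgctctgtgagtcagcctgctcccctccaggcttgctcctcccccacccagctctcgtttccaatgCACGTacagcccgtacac

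BNIP3 promoter, chr10:131981924-131982173, minus strand: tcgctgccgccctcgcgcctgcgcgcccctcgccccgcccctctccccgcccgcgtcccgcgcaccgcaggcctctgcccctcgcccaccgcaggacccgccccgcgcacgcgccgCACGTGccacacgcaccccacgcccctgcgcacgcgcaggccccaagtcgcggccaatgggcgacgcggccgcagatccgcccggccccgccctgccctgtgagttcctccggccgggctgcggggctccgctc

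DDIT4 promoter, chr10:72273674-72273923, plus strand: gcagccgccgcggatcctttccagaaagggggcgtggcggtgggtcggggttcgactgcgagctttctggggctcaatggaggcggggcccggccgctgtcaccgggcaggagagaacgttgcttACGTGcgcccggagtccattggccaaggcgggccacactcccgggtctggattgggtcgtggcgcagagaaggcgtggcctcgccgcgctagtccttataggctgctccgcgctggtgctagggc

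MIR210HG promoter, chr11:568458-568707, minus strand: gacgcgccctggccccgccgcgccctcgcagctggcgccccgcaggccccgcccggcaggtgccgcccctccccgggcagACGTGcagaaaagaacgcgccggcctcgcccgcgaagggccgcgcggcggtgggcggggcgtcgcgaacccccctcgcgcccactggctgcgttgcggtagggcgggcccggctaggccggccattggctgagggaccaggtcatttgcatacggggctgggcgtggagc

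UTP4 promoter, chr16:69132399-69132648, plus strand: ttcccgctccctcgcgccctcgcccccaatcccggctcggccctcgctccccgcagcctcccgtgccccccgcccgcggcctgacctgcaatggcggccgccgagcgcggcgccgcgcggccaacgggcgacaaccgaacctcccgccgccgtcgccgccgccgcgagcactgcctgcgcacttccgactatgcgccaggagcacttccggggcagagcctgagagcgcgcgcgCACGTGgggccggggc

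MIR210HG is the host transcript of the hypoxia-linked microRNA miR-210. Its 2 mature arms are shown with the seed, bases 2 to 8, in capitals. The values below are of the host transcript, not of the mature arms.

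hsa-miR-210-3p, chr11:568112-568133, minus strand: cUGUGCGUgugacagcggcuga

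hsa-miR-210-5p, chr11:568150-568171, minus strand: aGCCCCUGcccaccgcacacug

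The 9 libraries held 18171842 to 23024300 reads each, as recovered from the table. Mitochondrial genes held 2.80 to 3.04% of reads in high glucose, 3.8 to 3.89% with chrysin and 2.79 to 2.90% in low glucose. Between 15643 and 15740 genes reached 0.5 FPKM in the high glucose libraries, and between 16229 and 16315 did so with chrysin. High glucose replicate 1 stood apart from its group: the chi-square per gene between it and the others was 7.56 and 8.65, against 2.94 between replicates 2 and 3. Without it, 4042 genes rose and 3447 fell. The first principal component held 46.8% of the variance and separated the chrysin libraries from the other 6. Of the cardiomyocyte markers only 6 of 21 reached the level for testing, and MYL2, PLN, NKX2-5 and TBX5 were listed at 0 in every library. Those tested were ATP2A2, NPPB, GATA4, DES, ACTC1 and MYL3, at means of 191, 13.2, 9.41, 2.94, 0.389 and 0.384 FPKM in high glucose. All 13 fibroblast markers were tested, with high glucose means from 5138 (COL1A1) down to 1.11 (TCF21). By these markers the libraries held fibroblast transcripts and a minority of the heart muscle ones listed.

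Chrysin changed 7840 of the 16723 genes tested (46.9%) at an adjusted p under 0.05 by limma on log2(FPKM + 0.5). Of these, 4263 rose (25.5% of genes tested) and 3577 fell (21.4%). Counts of list members below are to be read beside these shares. Every chrysin library lay above every high glucose library for 5054 genes (30.2%) and below it for 4149 (24.8%). Most changes were small: the median size among called genes was 0.37 on the log2 scale, 32.9% of called genes reached 0.5, and 7.04% reached 1. A change of at least 1 was found for 363 genes that rose (2.17% of genes tested) and 189 that fell (1.13%). The log2 scale with 0.5 added understates the change of genes at low levels, so folds below are ratios of the mean FPKM and log2 values are on the fitted scale. An exact permutation test of 3 against 3 libraries cannot go below p = 0.1 for a single gene, so p-values below are from the fit over all genes, with Benjamini-Hochberg adjustment.

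**Figure D1:**
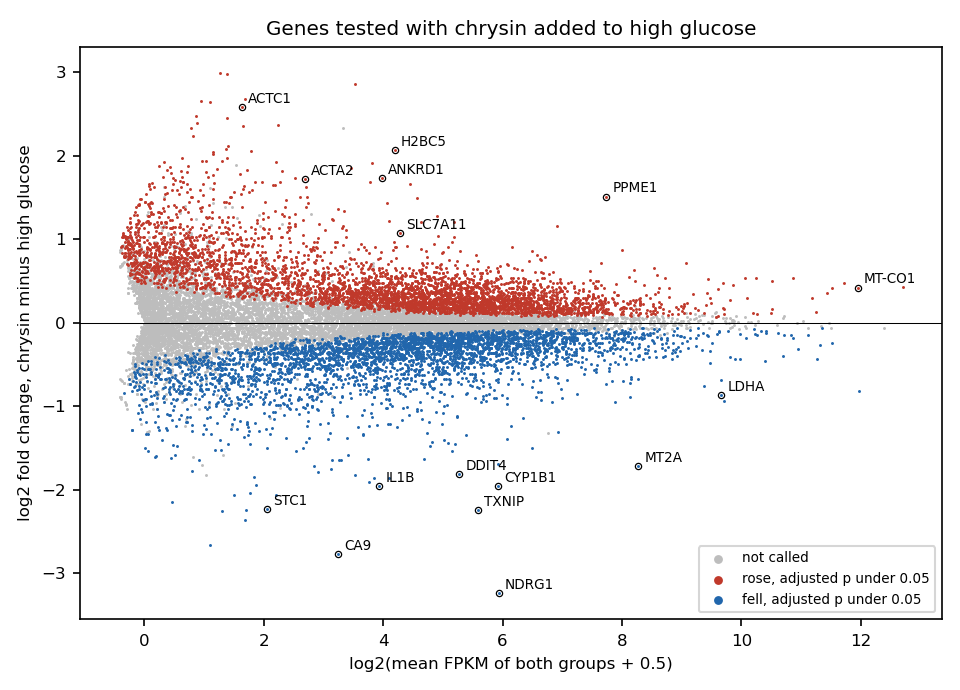
Each point is 1 of the 16723 genes tested, with the log2 of its mean FPKM plus 0.5 over the 6 libraries on the x axis and the fitted log2 fold change, chrysin minus high glucose, on the y axis. Red points rose and blue points fell at an adjusted p under 0.05, grey points were not called, and circled genes are described in the text, from NDRG1 at -3.24 to ACTC1 at 2.58.

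The largest fall among the genes named by rule was that of NDRG1, a stress- and hypoxia-induced gene of cell differentiation (chr8:133237171-133302022, minus strand, GENCODE 29 on hg38). It stood at 112, 109 and 109 FPKM in high glucose and 12.8, 11.9 and 9.14 with chrysin, and at 70.6, 67.8 and 73.6 in low glucose. The chrysin libraries were far below both other groups, and the mean was 9.75-fold lower than in high glucose (log2 change -3.24 with SE 0.09, adjusted p = 4e-09). NDRG1 and the other largest rises and falls were named only where the high glucose and chrysin groups do not overlap, so their separation is part of that choice. CA9, the tumour-linked carbonic anhydrase that controls pH outside the cell (chr9:35673856-35681159), also fell. Its level went from 17.6, 15.8 and 14.5 FPKM to 1.44, 2.82 and 1.69, 8.07-fold lower (log2 change -2.77 with SE 0.17, adjusted p = 5.2e-07). The low glucose libraries held CA9 at 8.78, 8.36 and 9.24, between the other groups. CA9 overlaps ARHGEF39 on the other strand, and no source used here says whether reads were assigned by strand. The same limit holds for other named genes with such an overlap, among them MMP2, BMF, VIPR1 and COLEC12, and not all are marked below.

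STC1, a secreted regulator of calcium and phosphate, fell from 6.67, 6.58 and 5.83 FPKM to 1.2, 0.82 and 0.899. The mean was 6.53-fold lower (log2 change -2.23 with SE 0.12, adjusted p = 3.1e-07). MIR210HG fell from 6.52, 7.18 and 7.08 to 0.803, 1.39 and 1.76 (log2 change -2.07 with SE 0.18, adjusted p = 5.4e-06), on 17 to 191 reads per library. BNIP3 and BNIP3L, receptors that mark mitochondria for removal, both fell. BNIP3 was tight in both groups, at 92.1, 92.9 and 92.5 FPKM in high glucose and 28.3, 29.6 and 27.2 with chrysin, 3.26-fold lower (log2 change -1.69 with SE 0.04, adjusted p = 1.5e-09). BNIP3L read 168, 170 and 181 in high glucose and 72, 69 and 66.7 with chrysin, 2.5-fold lower.

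DDIT4, an inhibitor of mTORC1 that responds to low oxygen and to stress, had 61.5, 58.4 and 58.7 FPKM in high glucose and 17.9, 15.7 and 16.3 with chrysin. It was 3.57-fold lower (log2 change -1.81 with SE 0.05, adjusted p = 2.6e-09), and it overlaps DDIT4-AS1 on the other strand. Low glucose held more DDIT4 than either, at 92.9, 95.2 and 92.6. VEGFA, the main vessel growth factor, had 39, 39 and 41.1 in high glucose and 18.2, 19.2 and 18.7 with chrysin, 2.13-fold lower. MXI1, a MYC antagonist, was 3.36-fold lower and KDM3A, an oxygen-dependent histone demethylase, 2.04-fold lower. Collagen-modifying members moved the same way: P4HA1, a prolyl hydroxylase of collagen, was 1.87-fold lower and the crosslinking enzyme LOX 1.98-fold lower.

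Over the hypoxia-induced list, 37 of 38 members were tested, 29 fell and 3 rose (78.4% and 8.11%, against 21.4% and 25.5% of all genes tested) and 5 were not called. The median was -0.71, against 0.03 over all genes tested. Of the 37, 11 fell by at least 1, a size that 1.13% of all genes tested reached. Those that rose included EPAS1, which encodes HIF-2 alpha, by 0.13 and the peptide hormone ADM by 0.12 on the log2 scale. The call for ADM was lost in 5 alternative settings (adjusted p of 0.05 to 0.081) and that for EPAS1 without chrysin replicate 3 (0.052). The transcript of HIF1A itself stood at 213, 238 and 234 in high glucose and 233, 236 and 236 with chrysin, with overlapping groups (adjusted p = 0.34). HIF-1 is known to be controlled mainly through the stability of its protein, which these libraries do not measure.

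**Figure D2:**
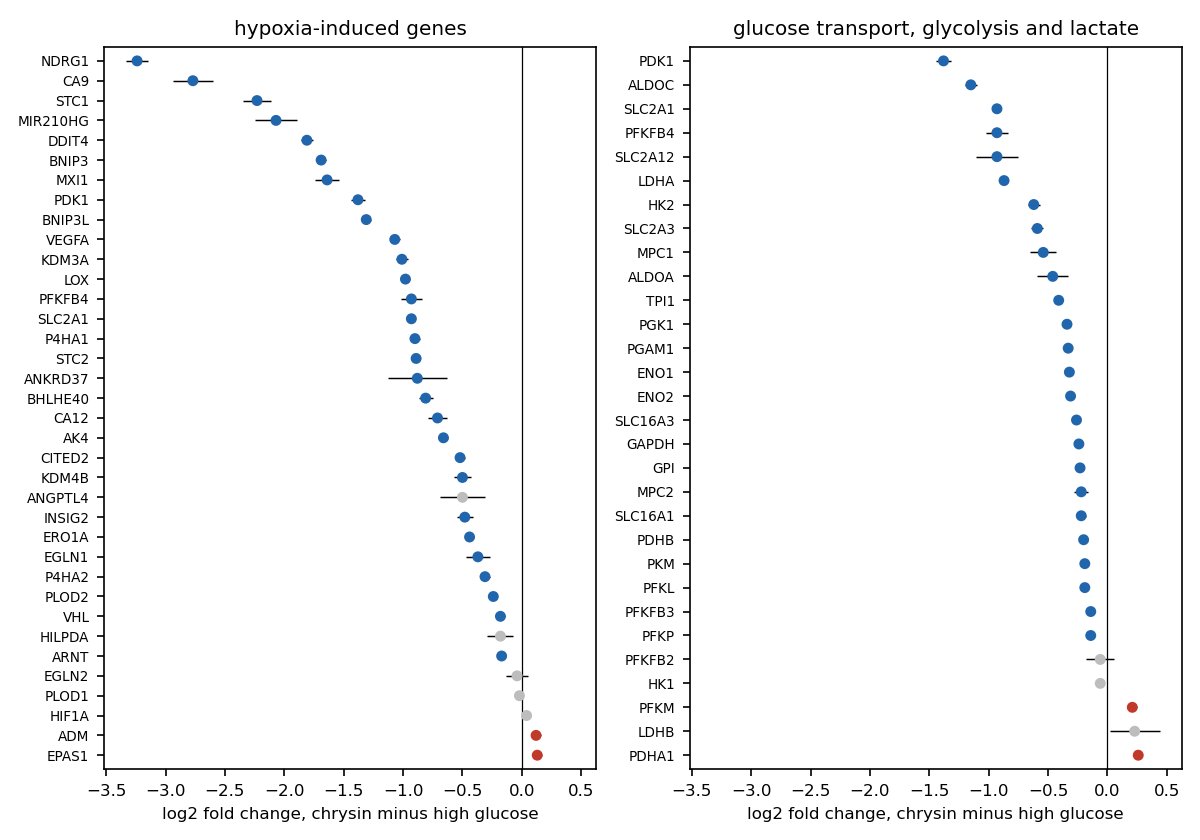
Fitted log2 fold changes, chrysin minus high glucose, with standard errors as bars, for 36 of the 37 tested hypoxia-induced genes on the left and the 30 tested genes of glucose transport, glycolysis and lactate on the right. Blue points fell, red points rose and grey points were not called, and 29 of 36 and 25 of 30 are blue.

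The core letters ACGTG were searched on both strands in windows of 300 bases, 250 before to 50 after the RefSeq start. Genes with more than 1 window were left out, and 17 of the 29 hypoxia-induced genes that fell had a window used. The letters were in 11 of these 17 windows (64.7%), in 27.9% of 7683 windows of tested genes and in 21.3% of all 22114 windows. The same letters were in 15 of 18 windows (83.3%) of the ribosome-building genes that rose, so they stood beside rises as well as falls. Among all genes that fell by at least 1 they were in 20.5% of 78 windows, and among those that rose by at least 1 in 26% of 96. The longer palindrome CACGTG, which contains ACGTG and was searched after the values were seen, was in 11 of the same 18 ribosome-building windows (61.1%), in 4 of the 17 hypoxia windows (23.5%) and in 10.4% of windows of tested genes. In the sequences above, BNIP3 holds the palindrome from 134 bases before its start and UTP4 holds it from 16 bases before its start. These are matches of letters, not measured binding.

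Genes that bring in and burn glucose fell almost throughout. Of 30 tested members of the glucose transport, glycolysis and lactate list, 25 fell and 2 rose, with a median of -0.29. These are 83.3% and 6.67%, against 21.4% and 25.5% of all genes tested. LDHA, which turns pyruvate into lactate, read 1062, 1036 and 1036 FPKM in high glucose and 576, 573 and 567 with chrysin. The spread within groups was small beside this gap, and LDHA was 1.83-fold lower (log2 change -0.87 with SE 0.02, adjusted p = 2.5e-09). SLC2A1, the basal glucose transporter GLUT1, went from 133, 132 and 124 to 65.9, 68.7 and 69.4, 1.91-fold lower. PDK1, the kinase that shuts pyruvate dehydrogenase, went from 14, 15.4 and 14.8 to 5.46, 5.57 and 5.07, 2.75-fold lower (log2 change -1.38 with SE 0.06, adjusted p = 8.7e-08).

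Other steps of the pathway fell too. ALDOC, an aldolase, was 2.25-fold lower, PFKFB4, which tunes the rate of phosphofructokinase, 1.94-fold, HK2, the inducible hexokinase, 1.56-fold, and SLC2A3, the transporter GLUT3, 1.51-fold. The abundant enzyme GAPDH averaged 3169 ± 169 FPKM (SD, n = 3) in high glucose and 2685 ± 21 with chrysin, 1.18-fold lower. SLC16A3, the lactate exporter MCT4, was 1.2-fold lower. The 2 that rose were PDHA1 (0.26), a subunit of pyruvate dehydrogenase, and PFKM (0.21), the muscle form of phosphofructokinase.

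TXNIP was 5.92, 5.72 and 6.07 FPKM in low glucose, 79.2, 78.2 and 80 in high glucose and 16.4, 15.3 and 17 with chrysin (chr1:145992435-145996600). Chrysin libraries thus lay 4.87-fold under high glucose (log2 change -2.25 with SE 0.05, adjusted p = 1.1e-09) and still above every low glucose library. ARRDC4, its closest relative among glucose-responsive arrestins, was low, at 1.16, 0.94 and 1.11 in high glucose and 0.778, 0.514 and 0.577 with chrysin (log2 change -0.49 with SE 0.17, adjusted p = 0.035). That call was lost in 5 alternative settings, with adjusted p from 0.051 to 0.1, among them without chrysin replicate 2 or 3 or high glucose replicate 1 or 3. HBP1, a repressor of cell cycle genes, was 2.35-fold lower, and ARRDC3, an arrestin of receptor sorting, 1.67-fold lower. MLXIP, which encodes MondoA, fell by 0.42 on the log2 scale. In all, 12 of 17 tested members of the TXNIP, MondoA and glucose sensing list fell and 1 rose, with a median of -0.26. The shares were 70.6% and 5.88%, against 21.4% and 25.5% of all genes tested.

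**Figure D3:**
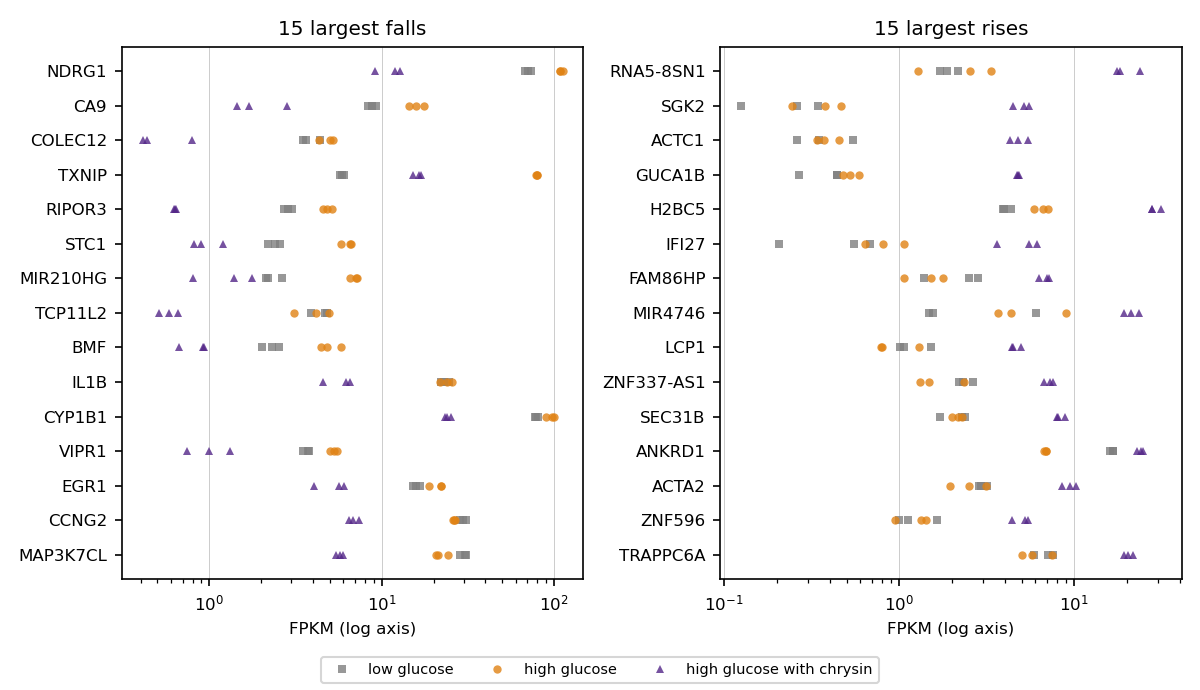
FPKM on a log axis of each of the 9 libraries for the 15 largest falls (left) and the 15 largest rises (right) among called, named genes with a mean log2(FPKM + 0.5) of at least 1. Squares are low glucose, circles high glucose and triangles high glucose with chrysin. Genes were taken only where triangles and circles do not overlap, so that separation is set by the choice, and the squares show where low glucose lay beside them.

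Chrysin is a flavonoid of a kind that can bind the aryl hydrocarbon receptor. A list was therefore made of the receptor, its partner ARNT and known targets. CYP1B1, a cytochrome P450 induced by this receptor, fell from 89.9, 99.7 and 97.5 FPKM to 25.4, 23.2 and 23.8, 3.96-fold lower (log2 change -1.96 with SE 0.05, adjusted p = 1.5e-09). Low glucose libraries held it at 77.1, 81.2 and 78.3. TIPARP, an ADP-ribosyltransferase that feeds back on the receptor, went from 29.5, 34 and 35.6 to 15.5, 15.6 and 16, 2.11-fold lower (log2 change -1.05 with SE 0.07, adjusted p = 8.3e-07). SERPINB2, a plasminogen activator inhibitor, was 3.2-fold lower. The receptor's own transcript, AHR, averaged 10.4 ± 0.51 (SD, n = 3) and 6.48 ± 0.13, 1.6-fold lower.

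Of 10 tested members of this list, 8 fell and none rose (80% and 0%, against 21.4% and 25.5% of all genes tested). The median was -0.50, and 6 of its 16 members were too low to test. AHR and its partner ARNT were among those that fell. CYP1A1, the most inducible target, was barely detected, at 0.562, 0.52 and 0.671 in high glucose and 0.445, 0.291 and 0.393 with chrysin (adjusted p = 0.2). AHRR, the receptor's repressor, averaged 2.42 ± 0.39 (SD, n = 3) and 1.87 ± 0.16 (adjusted p = 0.082). Among the alternatives run, it passed only without high glucose replicate 3, at an adjusted p of 0.025. CYP1B1 overlaps CYP1B1-AS1 and RMDN2 on the other strand.

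Genes of the process in the study's title moved in both directions. SCD, which desaturates stearate to oleate, read 143, 154 and 151 FPKM in high glucose and 177, 173 and 170 with chrysin, and 151, 159 and 161 in low glucose. The chrysin libraries were above all high glucose libraries, 1.16-fold higher (log2 change 0.22 with SE 0.04, adjusted p = 0.0005). SLC7A11, which brings in cystine for glutathione, rose more, from 10.8, 12.8 and 12.8 to 25.9, 27 and 24.9, 2.14-fold higher (log2 change 1.07 with SE 0.07, adjusted p = 7.6e-07). It overlaps SLC7A11-AS1 on the other strand. GPX4, the enzyme that repairs lipid peroxides, fell from 144, 129 and 131 to 95.7, 105 and 107, 1.31-fold lower (log2 change -0.39 with SE 0.05, adjusted p = 0.00012).

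ACSL4, which loads polyunsaturated fatty acids into membranes, rose from 79.2, 87.8 and 92.6 to 109, 114 and 112, 1.29-fold. TFRC, the receptor for iron uptake, rose from 170, 183 and 184 to 232, 242 and 237, 1.32-fold (log2 change 0.41 with SE 0.04, adjusted p = 1e-05). The ferritin subunits that store iron fell: FTH1 by 0.15 and FTL by 0.43 on the log2 scale, the former from 1861, 1750 and 1713 to 1608, 1620 and 1584. HMOX1, which releases iron from haem, rose from 19.1, 22.5 and 21.2 to 32.7, 28.6 and 29.2, 1.44-fold (log2 change 0.52 with SE 0.07, adjusted p = 0.00013). NCOA4, the receptor that sends ferritin to lysosomes, rose by 0.17, and the ferroportin gene SLC40A1, which exports iron, fell by 0.64.

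Taken as lists, ferroptosis defence had 10 members that rose and 11 that fell of 26 tested (38.5% and 42.3%, median -0.01). Ferroptosis promoters had 9 that rose and 6 that fell of 19 tested, with 9 more too low to test (47.4% and 31.6%, median 0.04). Among the 6 that fell was DPP4, by 0.77 on the log2 scale. Iron handling had 7 that rose and 8 that fell of 25 (28% and 32%, median -0.10). Over all genes tested, 25.5% rose and 21.4% fell, so the shares for iron handling stood nearer to the background than those of the defence list. Other members of the defence list that fell were GCH1 (by 0.61), the first enzyme of tetrahydrobiopterin synthesis, COQ2 (by 0.59), of coenzyme Q synthesis, and GSS (by 0.27), glutathione synthetase. Those that rose included TXNRD1 (by 0.42), thioredoxin reductase, NNT (by 0.43), which makes mitochondrial NADPH, and MBOAT2 (by 0.35), which puts monounsaturated chains into phospholipids.

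NRF2, encoded by NFE2L2, is the main antioxidant regulator, and its transcript fell 1.29-fold. The list of its targets, its regulators and the thioredoxin system had 9 up and 10 down of 32 tested, with NFE2L2 and BACH1 among those down and a median of 0.02. These shares, 28.1% and 31.2%, stand beside 25.5% and 21.4% over all genes. NQO1, a quinone reductase, fell from 315, 304 and 316 to 265, 255 and 263, 1.19-fold lower (log2 change -0.26 with SE 0.03, adjusted p = 1.6e-05), while GCLM, the modifier subunit of glutathione synthesis, rose 1.26-fold and MAFG, a partner of NRF2, by 0.67. BACH1, a repressor of HMOX1, fell by 0.48.

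Lipid synthesis also split by enzyme. ACACA, the rate-limiting carboxylase of fatty acid synthesis, rose 1.52-fold and FASN, the synthase, 1.23-fold. The desaturases of polyunsaturated fatty acids fell, FADS1 from 258, 268 and 258 to 179, 180 and 178 (1.46-fold lower, log2 change -0.54 with SE 0.03, adjusted p = 2.4e-07) and FADS2 by 0.33. SCD5, the second stearoyl desaturase, rose by 0.29. Of 26 tested members of fatty acid synthesis and desaturation, 10 rose and 7 fell (38.5% and 26.9%, against 25.5% and 21.4% of all genes tested).

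Among sterol genes 6 rose and 11 fell of 28 tested (21.4% and 39.3%, against 25.5% and 21.4% of all genes tested). INSIG1, which holds back SREBP processing, was 1.78-fold lower, from 122, 125 and 123 to 72.3, 65.4 and 70.2. HMGCS1, an early enzyme of cholesterol synthesis, was 1.28-fold lower (-0.35). PNPLA2, the main triglyceride lipase, was 1.72-fold lower, and lipid droplet genes as a list had 4 up and 4 down of 20, near the background shares.

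Mitochondrially encoded genes rose together. Of the 13 protein genes, 12 rose and none fell (92.3% and 0%, against 25.5% and 21.4% of all genes tested). The median was 0.42. MT-CO1, a subunit of cytochrome oxidase, read 3418, 3312 and 3408 in high glucose and 4449, 4490 and 4623 with chrysin, 1.34-fold higher (log2 change 0.42 with SE 0.02, adjusted p = 2.7e-07), and MT-ND5, of complex I, was 1.45-fold higher. MT-ATP8, the member not called, averaged 279 ± 27 (SD, n = 3) and 319 ± 9.4 (adjusted p = 0.074). The share of mitochondrial reads moved with these genes, as given above, and its part in other results is shown by the fit without them, which called 4557 genes as risen and 3351 as fallen. Nuclear genes of oxidative phosphorylation did not move as a block: 19 rose and 11 fell of 74 with deposited scaling, 15 and 15 after median-of-ratios scaling, and 23 and 4 without high glucose replicate 1. With deposited scaling the shares were 25.7% and 14.9%, against 25.5% and 21.4% of all genes tested.

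Amino acid and stress genes under ATF4 mostly fell. ATF4 is the factor of the integrated stress response. Of 43 tested members of its list, 28 fell and 3 rose, with a median of -0.33. These are 65.1% and 6.98%, against 21.4% and 25.5% of all genes tested. SLC6A9, a glycine transporter, was 2.67-fold lower, from 18.5, 17.8 and 16.4 to 6.6, 6.86 and 6.33 (log2 change -1.35 with SE 0.07, adjusted p = 2.3e-07). SLC7A5, the leucine transporter LAT1, was 1.8-fold lower and STC2, a secreted stress protein, 1.85-fold lower. The serine synthesis enzymes PHGDH and PSAT1 fell by 0.49 and 0.53. ATF4 itself fell by 0.14. SLC7A11 is also a member of this list and was 1 of the 3 that rose, with PYCR1 (0.13), of proline synthesis, and PPP1R15B (0.20), which reverses the stress response. Both of these calls were lost in some settings (adjusted p of 0.063 to 0.083 and of 0.061 to 0.085).

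DDIT3, the death-linked factor CHOP, stood far higher in low glucose than in either other group. It was 109, 101 and 99.3 in low glucose, 9.75, 9.63 and 9.62 in high glucose and 5.1, 5.07 and 4.27 with chrysin. The drop with chrysin was 2.01-fold (log2 change -0.94 with SE 0.07, adjusted p = 1.5e-06), and DDIT3 overlaps other genes on the opposite strand. HSPA5, the ER chaperone BiP, fell from 276, 277 and 285 to 239, 243 and 243, 1.16-fold lower. ER chaperones as a list had 11 up and 9 down of 31 (35.5% and 29%, against 25.5% and 21.4% of all genes tested). HERPUD1, of ER-associated degradation, was 1.86-fold lower.

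Cytosolic and mitochondrial chaperones rose. Of 24 tested heat shock genes 17 rose and 2 fell (70.8% and 8.33%, against 25.5% and 21.4% of all genes tested). The median was 0.25. HSPA1A, the inducible HSP70, rose from 7.62, 8.1 and 7.91 to 12, 11.7 and 12.3, 1.52-fold (log2 change 0.58 with SE 0.07, adjusted p = 5e-05). HSPD1, the mitochondrial HSP60, rose 1.2-fold, and HSF1, the factor that drives this group, 1.33-fold. The 2 that fell were the small chaperone HSPB1 (by 0.40) and the collagen chaperone SERPINH1 (by 0.36).

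Genes of ribosome assembly rose by small amounts. Of 37 tested, 26 rose and 1 fell (70.3% and 2.7%, against 25.5% and 21.4% of all genes tested). The median was 0.21. POLR1A, the large subunit of RNA polymerase I, rose 1.45-fold, BOP1, of large-subunit assembly, 1.44-fold, and NOLC1, a nucleolar scaffold, 1.35-fold. UTP4, of the small-subunit processome, whose promoter is shown above, rose from 112, 103 and 108 to 131, 130 and 130 (log2 change 0.28 with SE 0.04, adjusted p = 0.00011). The member that fell was FBL, the methyltransferase of ribosomal RNA, 1.25-fold lower, and voom on recovered reads called 3 as fallen. Cytosolic ribosomal proteins depended on the processing: 14 of 76 rose and 6 fell, 36 rose without high glucose replicate 1, and 7 rose and 8 fell after median-of-ratios scaling. With deposited scaling the shares were 18.4% risen and 7.89% fallen.

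The mitochondrial ribosomal RNA MT-RNR2 held 81643 to 141581 reads per library and was 1.4-fold higher with chrysin. MT-RNR1 held 12490 to 17535 and was not called. Reads of the tested 5.8S ribosomal RNA genes were few. RNA5-8SN1, a 5.8S ribosomal RNA gene, was at 1.28, 2.55 and 3.36 with 4 to 10 reads per library in high glucose and at 17.5, 18.2 and 23.6 with 49 to 80 with chrysin (log2 change 2.86 with SE 0.23, adjusted p = 4e-06). It is 1 of several near-identical copies, so the assignment of its reads is uncertain, and the libraries were selected for polyadenylated RNA.

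Inflammatory genes fell or were not called. Of 26 tested NF-kB and inflammatory mediators, 15 fell, none rose and the median was -0.35. These are 57.7% and 0%, against 21.4% and 25.5% of all genes tested. IL1B, a cytokine that starts inflammation, was 24.1, 21.7 and 25.6 in high glucose and 6.22, 6.54 and 4.57 with chrysin, 4.12-fold lower (log2 change -1.96 with SE 0.11, adjusted p = 3.7e-07), and its low glucose level was 23.1, 24.7 and 22.2. IL6 went from 11.3, 9.62 and 10.7 to 2.88, 2.64 and 3.07, 3.69-fold lower. CXCL8, which draws neutrophils, went from 36.9, 35.6 and 39.5 to 14.6, 16.5 and 17.2, 2.32-fold lower. The subunit gene NFKB1 fell by 0.37, and SOD2, mitochondrial superoxide dismutase, by 0.41.

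Interferon-responsive genes fell in 21 of 30 tested cases and rose in 2, with a median of -0.58. These are 70% and 6.67%, against 21.4% and 25.5% of all genes tested. IFI44 was 2.19-fold lower and IFIT3 1.95-fold lower. IFI27 went the other way, from 0.636, 1.06 and 0.813 to 5.49, 6.16 and 3.63, 6.09-fold higher (log2 change 2.05 with SE 0.23, adjusted p = 4.2e-05), and OAS3 rose by 0.20. MX1, an antiviral GTPase, averaged 5.4 ± 0.18 (SD, n = 3) and 5.47 ± 0.16 (adjusted p = 0.93). The class I antigen genes HLA-B and HLA-C fell by 0.44 and 0.29, and these are similar to each other, so reads can be shared between them. CD274, the checkpoint ligand PD-L1, rose from 5.91, 6.39 and 5.91 to 14.3, 13.9 and 12.9, 2.25-fold (log2 change 1.11 with SE 0.06, adjusted p = 3.9e-07).

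**Figure D4:**
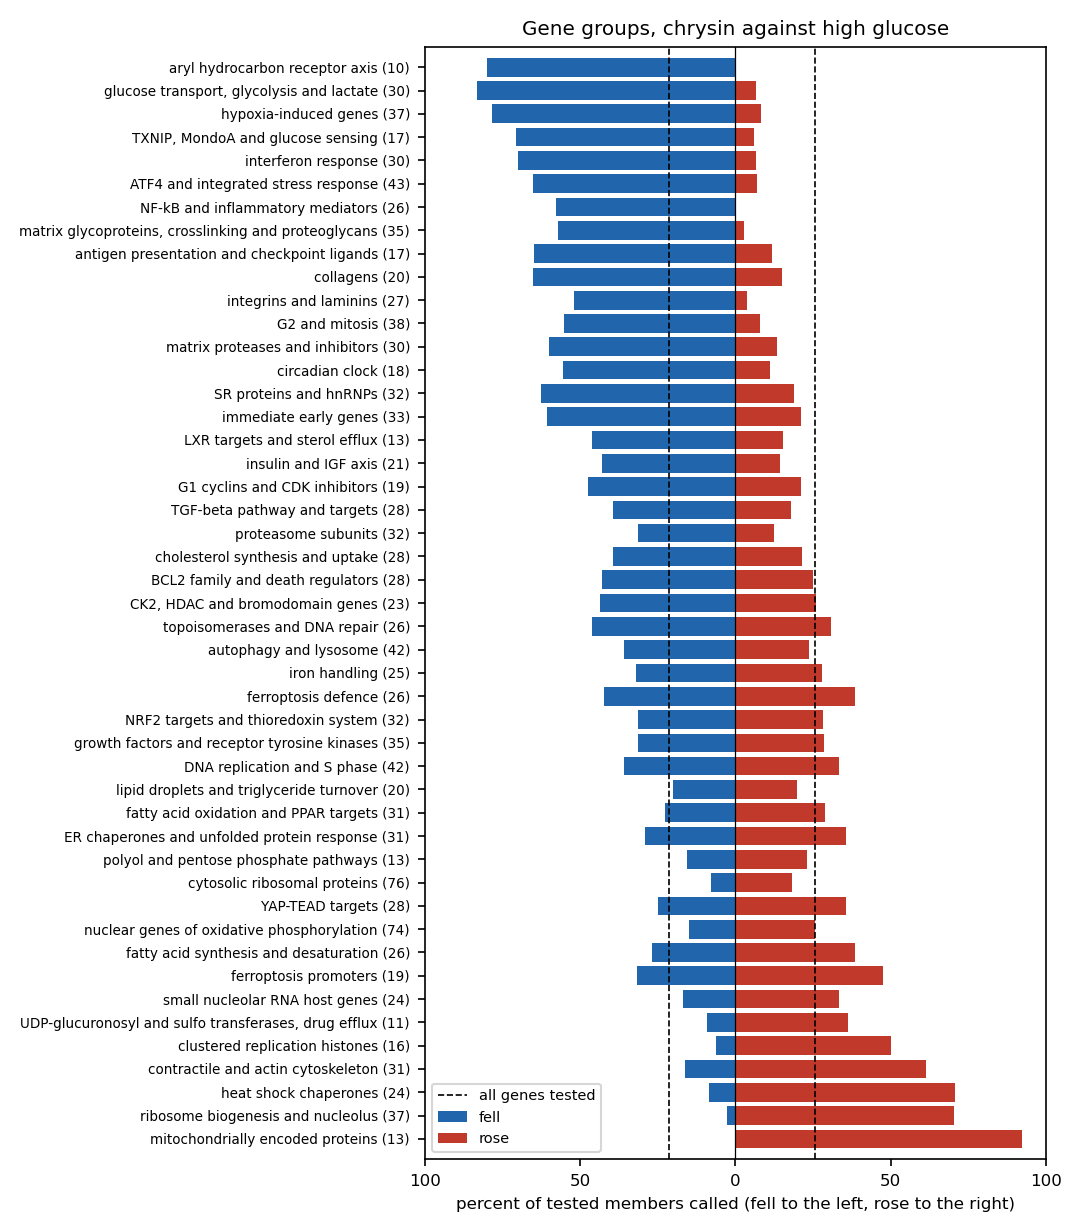
Percent of tested members that rose (red, to the right) and fell (blue, to the left) for gene lists with at least 10 tested members, 1 list left out, with the number tested in brackets. Dashed lines mark the shares over all genes tested, 25.5% risen and 21.4% fallen.

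The matrix that fibroblasts make fell. COL1A1, the main chain of type I collagen, was 5307, 5204 and 4903 in high glucose and 2956, 2930 and 2813 with chrysin. The chrysin libraries were also under the low glucose ones, at 3720, 3840 and 3560, and the drop from high glucose was 1.77-fold (log2 change -0.82 with SE 0.04, adjusted p = 6.4e-08). COL1A2 was 1.69-fold lower and COL3A1 1.67-fold lower. Of 20 tested collagens 13 fell and 3 rose (65% and 15%, against 21.4% and 25.5% of all genes tested). Those that rose were COL4A1, a basement membrane chain (1.55-fold), its partner COL4A2 (by 0.21) and COL27A1 (by 0.24).

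DCN, a small proteoglycan that binds collagen fibres, fell from 12, 13 and 13.9 to 3.39, 4.11 and 3.05, 3.69-fold lower (log2 change -1.75 with SE 0.11, adjusted p = 5.3e-07). LUM, a relative of decorin, was 2.75-fold lower, and FAP, a surface protease of activated fibroblasts, 2.79-fold lower. MMP2, a gelatinase, went from 53.2, 55 and 50 to 17.3, 19.5 and 16.7, 2.96-fold lower (log2 change -1.54 with SE 0.06, adjusted p = 3.1e-08). FN1, fibronectin, was 1.4-fold lower. Over all genes tested, 21.4% fell and 25.5% rose. Across lists, 20 of 35 matrix glycoprotein, crosslinking and proteoglycan genes fell and 1 rose (57.1% and 2.86%). Of 30 proteases and inhibitors, 18 fell and 4 rose (60% and 13.3%). Among 27 integrins and laminins, 14 fell and 1 rose (51.9% and 3.7%). That riser was ITGA5, the fibronectin receptor chain (1.29-fold).

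Fibroblast markers as a list had 9 of 13 fallen and none risen (69.2% and 0%, against 21.4% and 25.5% of all genes tested). Their summed level was 9241 to 9675 FPKM in high glucose, 6490 to 6645 with chrysin and 7880 to 8169 in low glucose. All libraries were of the AC16 line, and bulk libraries cannot tell fewer cells that express these markers from less RNA per cell. THY1, a surface marker of fibroblasts, averaged 264 ± 5.9 (SD, n = 3) and 268 ± 6.2 (adjusted p = 0.56), so not every marker followed. Of the other marker lists, leukocyte (1 of 4 fell), epithelial and mesothelial (2 of 7 fell) and adipocyte genes (none of 2 called) had few tested members. Of 8 tested smooth muscle and pericyte markers, ACTA2, TAGLN and LMOD1 rose, DES and PDGFRB (1.45-fold lower) fell and 3 were not called, among them CNN1, a calponin, at a mean of 33.6 in high glucose and 31.7 with chrysin (adjusted p = 0.15). Of 3 tested endothelial markers TIE1 (1.99-fold lower) and TEK (adjusted p = 0.044) fell, the call for TEK being lost in most alternatives run. ESAM rose from a mean of 0.148 to 0.733 FPKM (log2 change 0.94, adjusted p = 0.0057) and was tested only through its chrysin level. Whether the line held cells of these types was not tested.

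Of 31 tested genes of actin and contraction, 19 rose and 5 fell, with a median of 0.22. These are 61.3% and 16.1%, against 25.5% and 21.4% of all genes tested, though 8 fell by voom and 3 without high glucose replicate 1. ACTC1, cardiac alpha-actin (chr15:34788095-34795726), was nearly off in high glucose at 0.373, 0.453 and 0.341 and in low glucose at 0.545, 0.261 and 0.348. With chrysin it reached 5.43, 4.77 and 4.28, 12.4-fold higher (log2 change 2.58 with SE 0.16, adjusted p = 7.3e-07). Its high glucose mean of 0.389 FPKM was under 0.5, so it was tested only through its chrysin level. ACTC1 also overlaps AC087457.1 on the other strand. It was the 1 tested cardiomyocyte marker that rose, and DES (by 0.71) and NPPB (by 0.37) fell. ACTA2, smooth muscle alpha-actin, rose from 3.13, 2.52 and 1.95 to 10.2, 8.49 and 9.47 (log2 change 1.72 with SE 0.13, adjusted p = 2.9e-06) and overlaps ACTA2-AS1, FAS and STAMBPL1 on the other strand. ACTG2, the enteric smooth muscle actin, was 2.47-fold higher, and the coding sequences of the actins are alike, so some reads may be shared.

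TAGLN, an actin-bundling protein of smooth muscle, was 1.64-fold higher, though the smooth muscle markers as a list went both ways, as given above. MYL9, a myosin regulatory chain, was 1.59-fold higher and FLNA, filamin, 1.44-fold. SRF, the factor that drives many of these genes, was 1.4-fold higher, while its cofactor MYOCD was 2.19-fold lower. ANKRD1, a stretch-responsive gene of heart muscle and a target of YAP, was 16.6, 16 and 16.6 in low glucose, 6.89, 6.86 and 6.71 in high glucose and 22.7, 24.6 and 24 with chrysin. It was 3.48-fold higher than in high glucose (log2 change 1.73 with SE 0.05, adjusted p = 4e-09). CCN2, another target of YAP, averaged 89.9 ± 3.8 (SD, n = 3) and 84.2 ± 12 and was not called (adjusted p = 0.33), though it was without chrysin replicate 2 (-0.21, 0.017). YAP targets had 10 up and 7 down of 28 (35.7% and 25%, against 25.5% and 21.4% of all genes tested).

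Signalling genes near TGF-beta and BMP split. ID3 and ID1, targets of BMP signalling, rose 2.24-fold and 1.88-fold, ID3 from 76.9, 72 and 72 to 161, 167 and 167 (log2 change 1.16 with SE 0.04, adjusted p = 5e-09). SMAD7, which blocks the receptors, fell 1.81-fold, the receptor gene TGFBR1 by 0.73, SMAD3 by 0.50 and the ligand TGFB1 by 0.36. In the whole list 5 rose and 11 fell of 28 (17.9% and 39.3%, against 25.5% and 21.4% of all genes tested).

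Fast-responding genes mostly fell, 20 of 33 with 7 risen (60.6% and 21.2%, against 21.4% and 25.5% of all genes tested). EGR1, a growth-induced factor, went from 22, 22 and 18.8 to 4.03, 5.65 and 6.08, 3.98-fold lower (log2 change -1.91 with SE 0.12, adjusted p = 8.1e-07). MYC fell 1.3-fold. DUSP1, a phosphatase that switches off MAP kinases, rose 2.06-fold.

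Cell cycle genes split. CCND1, cyclin D1 of the G1 phase, rose from 185, 181 and 175 to 328, 335 and 328, 1.83-fold (log2 change 0.87 with SE 0.04, adjusted p = 6.6e-08), and CCND3 rose by 0.61. CDKN1C, an inhibitor of cyclin kinases, fell 4.18-fold. CDKN1A, the cyclin kinase inhibitor p21, averaged 76.5 ± 1.9 (SD, n = 3) and 70.5 ± 4.6 (adjusted p = 0.12). It was called as lower by voom on recovered reads (0.016) and without chrysin replicate 1 (0.038).

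Of 38 genes of G2 and mitosis 21 fell and 3 rose, with a median of -0.13. These are 55.3% and 7.89%, against 21.4% and 25.5% of all genes tested. KIF20A, a kinesin of cell division, was 1.73-fold lower, from 159, 158 and 163 to 91, 91 and 94.9, and TOP2A 1.33-fold lower. MKI67, a marker of dividing cells, averaged 105 ± 6.3 (SD, n = 3) and 104 ± 1.7 (adjusted p = 0.72). In S phase 14 rose and 15 fell of 42 (33.3% and 35.7%, against 25.5% and 21.4% of all genes tested). Among those that fell was RRM2, a subunit of ribonucleotide reductase, 1.65-fold lower. Clustered histone genes rose in 8 of 16 tested cases and fell in 1 (50% and 6.25%, against 25.5% and 21.4% of all genes tested). H2BC5 went from 5.88, 6.61 and 7.11 to 27.7, 27.9 and 31.3, 4.43-fold higher (log2 change 2.07 with SE 0.08, adjusted p = 2.9e-08), and H2AC6 was 2.8-fold higher. Most replication histone transcripts lack a poly(A) tail, and 11 of 27 list members were too low to test.

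FOXO factors, which insulin signalling keeps out of the nucleus, have targets that were listed after the values of CCNG2 and others were seen, so their count is a description only. Of 27 tested, 19 fell and 1 rose (70.4% and 3.7%, against 21.4% and 25.5% of all genes tested). A fall of at least 1 was found for 10, a size that 1.13% of all genes tested reached. CCNG2, an unusual cyclin that restrains division, went from 26.3, 26.6 and 26 to 7.44, 6.78 and 6.44, 3.82-fold lower (log2 change -1.86 with SE 0.06, adjusted p = 5e-09). BMF, a BH3-only death protein, fell 5.97-fold, BBC3, the death protein PUMA, 3.22-fold, and FBXO32, a ubiquitin ligase of muscle wasting, 3.29-fold. PDCD4, an inhibitor of translation, fell 2.85-fold. PIK3IP1, an inhibitor of PI3 kinase, averaged 1.2 ± 0.39 (SD, n = 3) and 0.449 ± 0.18 (adjusted p = 0.015), a call lost without chrysin replicate 3 or high glucose replicate 2 or 3 (0.054 to 0.059). BCL2L11, encoding BIM, rose 1.55-fold.

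Of 18 tested clock genes 10 fell and 2 rose (55.6% and 11.1%, against 21.4% and 25.5% of all genes tested). DBP, an output factor of the clock, was 3.04-fold lower and NR1D1, the repressor REV-ERB alpha, 2.71-fold lower, while CRY1 was 1.42-fold higher. Among 32 splicing factors of the SR and hnRNP families 20 fell and 6 rose (62.5% and 18.8%), with HNRNPA1 1.92-fold lower and SRSF1 1.64-fold lower. MT2A, the most abundant metallothionein here and a binder of zinc and copper, fell from 516, 464 and 443 to 137, 140 and 153 (log2 change -1.72 with SE 0.06, adjusted p = 6.6e-09). Its family split, since MT1E also fell while MT1M and MT1F rose, and these short genes are alike in sequence.

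Outside the lists, the largest rises among named genes included SGK2, a kinase related to SGK1, which went from 0.468, 0.379 and 0.245 to 4.46, 5.18 and 5.48 (log2 change 2.68 with SE 0.17, adjusted p = 7.7e-07). SGK2 averaged 0.364 FPKM in high glucose and was tested only through its chrysin level. GUCA1B, a guanylate cyclase activator, went from 0.52, 0.593 and 0.475 to 4.78, 4.81 and 4.73, and LCP1, an actin bundler of blood cells, from 0.789, 1.29 and 0.794 to 4.41, 4.49 and 4.96. The falls included COLEC12, a scavenger receptor, from 4.34, 5 and 5.25 to 0.434, 0.411 and 0.792, RIPOR3, from 4.6, 5.16 and 4.85 to 0.644, 0.632 and 0.628, and VIPR1, a neuropeptide receptor, 5.16-fold lower. PPME1, a methylesterase of protein phosphatase 2A, was noticed for its small error after its values were seen: it read 113, 109 and 111 in high glucose, 316, 323 and 310 with chrysin and 126, 126 and 125 in low glucose (log2 change 1.51 with SE 0.03, adjusted p = 1.7e-10).

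Gene types did not share the calls evenly. Of 1234 antisense genes tested, 295 rose (23.9%) and 52 fell (4.21%), and of 728 lincRNAs 191 rose (26.2%) and 64 fell (8.79%). A mean under 2 FPKM was found for 900 of these antisense genes and 536 of these lincRNAs. A gene near 0.5 FPKM can enter the test through its chrysin level alone, which favours rises. Antisense counts also depend on strand, and no source used here says whether reads were assigned by strand. Among 12540 protein-coding genes 3370 rose (26.9%) and 3310 fell (26.4%). At a mean of 2 to 5 FPKM, where levels are alike, 34.8% of 224 antisense genes rose and 4.91% fell, against 17% and 26% of 1352 protein-coding genes. A total of 244 protein-coding genes lie opposite the antisense genes that rose, and 27.9% of them rose and 27.9% fell. Opposite the antisense genes that did not rise, 27.3% of 783 rose and 29.9% fell. Among the longest protein-coding genes, those that span 96241 bases or more, 21.1% rose and 29.1% fell.

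**Figure D5:**
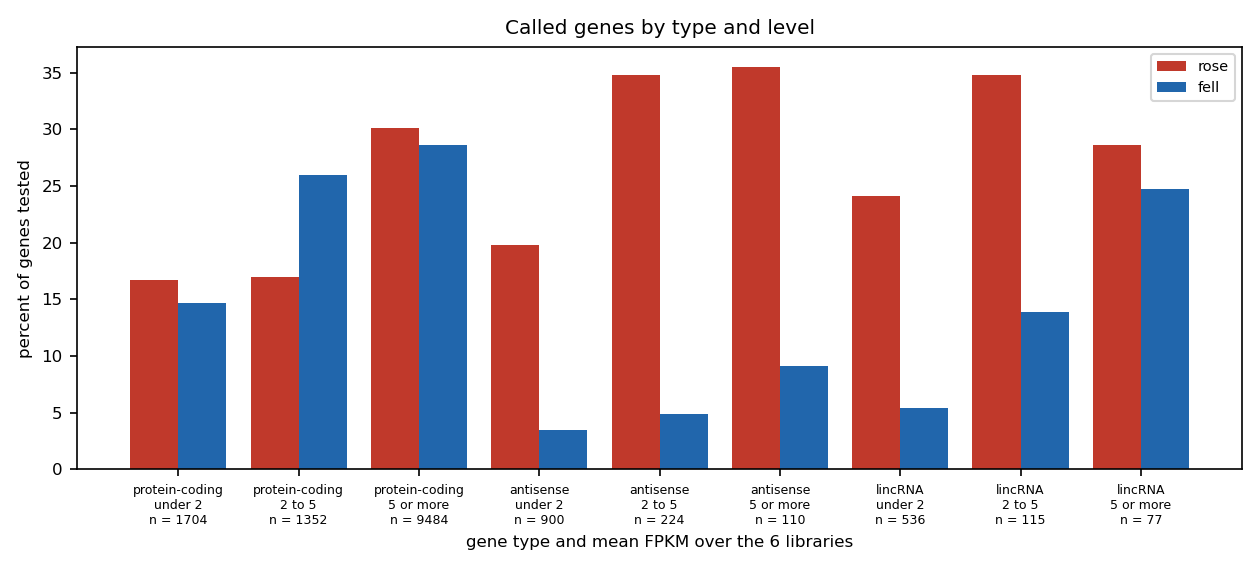
Percent of tested genes that rose (red bars) and fell (blue bars) with chrysin, by gene type and by mean FPKM over the 6 libraries, with the number of genes tested under each pair. For antisense genes the red bar is taller at each level, while for protein-coding genes of 2 to 5 FPKM the blue bar is taller.

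At the edge of detection, 65 genes were listed at 0 in every high glucose library and 25 in every chrysin library while averaging at least 0.5 FPKM in the other group. None was protein-coding, and none had more than 16 recovered reads in a library, so their values rest on a few reads. Recovered reads were the smallest whole numbers that fit, and a gene above 0 in only 1 library was set to 1 read. These counts can therefore be too low.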

How the data were processed

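Polyadenylated RNA was sequenced from 9 AC16 libraries, 3 per group. The authors deposited 1 table of FPKM values per gene and library. Tools listed by the submitters' processing notes are HTSeq 0.13.5, StringTie 2.2.1, HISAT2 2.2.1 and fastp 0.23.4, with hg38 as the build. The role of each tool, the gene annotation and the strand setting have no source here, and the unit was taken as FPKM. Steps between libraries gave whole reads for 28230 of 28230 genes above 0 in 2 or more libraries (largest distance from a whole number 4.6e-05, tolerance 0.02). Other units scaled by gene length and library would give such steps too, so the steps do not single out FPKM.

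A gene was tested when its mean reached 0.5 FPKM in high glucose or in high glucose with chrysin. The test was limma's trend fit (version 3.58.1, R 4.3.3) on log2(FPKM + 0.5). All 9 libraries entered 1 fit without a replicate block. P-values are two-sided, adjusted over 16723 genes and called under 0.05. The same code was tested on simulated data. Gene positions and types are from GENCODE 29 (98.5% of tested genes matched by name), and promoters and microRNAs from RefSeq on GRCh38.p14.

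The groups of genes and the comparison were chosen with earlier results of these data known. Genes were named by rule: the 15 largest rises and falls with a mean log2(FPKM + 0.5) of at least 1, a unique symbol that is not clone-based and groups that do not overlap, a preset list around ferroptosis, xenobiotic and stress response, up to 5 members of each list with the smallest p, called cell type markers, and genes listed at 0 in 1 group. Other genes named, the FOXO and ribosomal RNA lists and the CACGTG motif were added after values were seen. Some genes and lists are not reported here. Alternatives were other pseudocounts, filters, scalings, a fit on 6 libraries, voom on recovered reads, a replicate block and leaving out each library.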

Additional observations from a re-analysis of the deposited data

How the results depend on the processing

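Each other filter, scaling, tool and set of libraries kept the calls in both directions within 1.5 times of the reported 4263 rises and 3577 falls. Leaving out 1 library at a time gave 3702 to 4197 rises and 3173 to 3498 falls. A pseudocount of 0.1 gave 4182 and 3574, a pseudocount of 1 gave 4289 and 3572, no filter 4286 and 3227, a mean of at least 5 FPKM 3220 and 3032, and the 6 libraries alone 4065 and 3376. The share of calls that rose was 54.4% as reported, 49% after median-of-ratios scaling (3838 and 3996) and 49.4% by voom on recovered reads (4102 and 4205). It was 57.6% without mitochondrially encoded genes (4557 and 3351) and 57.1% with a GC and length correction (4687 and 3522). Scaling moved the median log2 of all genes by at most 0.03, from 0.03 to between 0.00 and 0.05. At a change of at least 1 on the log2 scale, 363 rose and 189 fell. With the replicate number as a block, 4113 rose and 3470 fell. The numbers are not evidence of pairing, since deviations of same-numbered libraries correlated at -0.14, -0.03 and -0.06.

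Of 465 genes named and tested, none that was called in the main fit or in the alternative changed direction between them. Changes of direction in genes called in neither were not counted. In all, 391 kept their call under every alternative run and 74 changed it in 1 or more. Most of these 74 are listed at 0 in every library of 1 group.
Calls that changed by setting and are not given above included those for FOS, FOXO3, KLF10, KHK, SLC6A6, TALDO1, TEK and VIM, each lost in 1 or more, and for CCNG1, ERBB3, HDAC8, IRS2, MT-ATP8, MT-RNR1 and THY1, each gained in 1 or more. Lists that moved by over 1.5 times included proteasome subunits (4 of 32 rose, 2 by voom), sterol efflux (2 of 13 rose, 1 without high glucose replicate 1), polyol and pentose phosphate genes (2 of 13 fell, 5 by voom) and topoisomerases and DNA repair (8 of 26 rose, 5 after median-of-ratios scaling). Counts of 0 to 2 changed by 1 in the lists of TXNIP and glucose sensing, inflammatory mediators, matrix glycoproteins and drug efflux. Depth limits genes near 0.5 FPKM, where a library holds few reads, and intervals for single libraries were not computed.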

Other observations

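Growth factor and receptor genes had 10 risen and 11 fallen of 35 tested (28.6% and 31.4%), near the 25.5% and 21.4% over all genes tested. FGF1, the acidic fibroblast growth factor, went from 5.83, 4.48 and 5.49 FPKM in high glucose to 13.2, 14.6 and 14.3 with chrysin, 2.66-fold higher (log2 change 1.34 with SE 0.09, adjusted p = 1.4e-06 by limma). DIO2, which activates thyroid hormone, went from 11.9, 13.2 and 10.8 to 35.9, 33.3 and 34.2, 2.88-fold higher, and in neither gene did the groups overlap. UCP3, a mitochondrial carrier of muscle, rose from 1.11, 1.01 and 0.813 to 2.54, 2.68 and 2.59. These 3 genes were picked after their values were seen.

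Autophagy and lysosome genes had 10 risen and 15 fallen of 42 tested (23.8% and 35.7%, against 25.5% and 21.4% of all genes tested). Outside that list, MDM2, a ubiquitin ligase, fell by 0.32 on the log2 scale, while AEN, a nuclease, rose by 0.49 and PLK2, a stress-induced kinase, by 0.29. DNA repair and topoisomerase genes had 8 risen and 12 fallen of 26 (30.8% and 46.2%), and insulin and IGF genes 3 and 9 of 21 (14.3% and 42.9%). Genes of glucuronidation, sulfation and drug efflux had 4 and 1 of 11 (36.4% and 9.09%), with the other 11 of that list too low to test.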
